A study of Mus musculus with 6 samples.

Results

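The genes examined here were 10 genes that serve protein secretion or the response to stress of the endoplasmic reticulum (ER): Creb3l2, Sec23a, Sec24d, Mia3, Hspa5, Hsp90b1, Calr, Ddit3, Atf4 and Atf6. They were taken by gene name from a table of 33971 genes, and each of the 10 was found once. The table covers articular cartilage of wild-type (WT) mice as 3 libraries of 2-month-old and 3 of 18-month-old animals, and the question was how expression in cartilage changed during aging. No allele, transgene or treatment separated the groups. The study's methods name male mice and give cartilage of the femoral head, femoral condyles and tibial plateau as the source for cell isolation, but neither the labels nor the methods say how many mice went into a library. P-values therefore measure the spread between these libraries, which may be technical.

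Chondrocytes build cartilage by secreting very large amounts of type II collagen and proteoglycan, so their ER is under a heavy load. Nascent chains fold in the ER lumen with the help of chaperones, and cargo leaves at exit sites in vesicles coated by the COPII proteins, where a cargo receptor helps load procollagen, which is too long for an ordinary vesicle. When unfolded protein builds up, sensors in the ER membrane start the unfolded protein response: ATF6 is cut in the Golgi to release a transcription factor for chaperone genes, PERK slows translation while favouring ATF4, and ATF4 with its partner CHOP (the product of Ddit3) drives genes for amino acid supply and, under lasting stress, for cell death. CREB3L2 (also called BBF2H7) is a related membrane-bound factor that is known to be needed for matrix secretion by growing chondrocytes, with Sec23a among its known targets.

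The shares of counts taken by markers of several cell types differed between the 2 ages, to be kept in mind for every value below. Totals ran from 48171507 to 59085179 counts. A list of 16 chondrocyte markers made up 7.54% to 8.87% of all counts at 2 months and 0.846%, 0.196% and 0.195% in 18-month replicates 1, 2 and 3, and the 16 genes were called lower with age (the call is defined below). In the 18-month libraries 14 neutrophil markers took 4.26% to 4.57% of the counts, 9 erythroid markers 2.70% to 3.57% and 10 monocyte and macrophage markers 0.680% to 0.882%. The same lists took 0.379%, 0.660% and 0.126% in 2-month replicate 2, and at most 0.00581%, 0.0697% and 0.0181% in the other 2-month libraries. By the same call 0 of these neutrophil, 3 erythroid and 1 of the monocyte and macrophage markers were higher (14.9% of all tested genes). Every 18-month library lay above every 2-month library for 14, 9 and 9 of them (33.9% of all tested genes). Plasma cells, which are also heavy secretors, had 10 markers that took 0.0481% to 0.0564% at 18 months and 0.00376% to 0.0186% at 2 months. The range for 10 osteoblast and osteocyte markers was 0.503% to 0.718% at 2 months and 0.135% to 0.152% at 18 months. For 10 B lymphocyte markers it was 0.00105% to 0.0295% and 0.0213% to 0.0251%, and for 10 skeletal muscle markers 0.00866% to 0.0169% and 0.000738% to 0.000937%. Called higher were 3 plasma cell markers (14.9% of all tested genes), and 0 B lymphocyte markers were called in either direction. Called lower were 4 osteoblast and osteocyte markers and 5 of the 8 skeletal muscle markers tested. Of all tested genes 21.3% were called lower, to be set beside these and the 16 chondrocyte markers. A single plasma cell marker was at 0 in every 2-month library and 2 muscle markers were at 0 in every 18-month library. In bulk tissue, fewer cells of a type and less RNA per cell cannot be told apart, and the part of cell content in the differences below was not tested. Xist, which marks an inactive X chromosome, had 88239 to 102417 counts at 2 months and 11 to 30 at 18 months, which goes against male mice at both ages, so that age and the Xist pattern cannot be told apart.

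The RefSeq table of promoters (build GRCm38.p6, 250 bases before to 50 bases after a gene's start) matched 9 of the 10 genes, all but Atf6. The ER stress response element, known from chaperone promoters, was searched on both strands as CCAAT and CCACG with 9 bases of any kind between them. It was present in 39 of 32851 promoters (0.119%) and in 3 of the 9 genes, namely Hspa5, Hsp90b1 and Calr, the 3 chaperones. The bases before the start of these 3 genes are shown because they carry that element, which stands in capitals, on the strand of the gene. Hspa5 lies at chr2:34771840-34772089 (plus strand), Hsp90b1 at chr10:86705445-86705694 (minus strand) and Calr at chr8:84846932-84847181 (minus strand).
Hspa5: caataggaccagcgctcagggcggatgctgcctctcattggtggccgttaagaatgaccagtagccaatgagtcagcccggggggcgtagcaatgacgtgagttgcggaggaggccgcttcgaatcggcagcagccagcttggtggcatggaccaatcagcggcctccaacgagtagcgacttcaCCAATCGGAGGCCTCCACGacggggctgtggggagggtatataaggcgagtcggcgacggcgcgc
Hsp90b1: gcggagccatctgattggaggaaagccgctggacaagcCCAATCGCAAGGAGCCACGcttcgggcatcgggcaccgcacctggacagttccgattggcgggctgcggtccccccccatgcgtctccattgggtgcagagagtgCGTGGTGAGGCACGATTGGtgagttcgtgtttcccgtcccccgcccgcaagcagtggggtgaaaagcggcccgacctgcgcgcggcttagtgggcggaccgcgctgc
Calr: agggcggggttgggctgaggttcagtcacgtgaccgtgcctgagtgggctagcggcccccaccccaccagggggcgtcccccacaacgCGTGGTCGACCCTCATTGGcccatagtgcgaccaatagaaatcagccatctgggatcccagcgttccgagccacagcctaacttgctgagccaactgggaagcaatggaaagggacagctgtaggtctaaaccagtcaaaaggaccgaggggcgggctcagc
The element of Hspa5 ran from 65 to 47 bases before the start. Hsp90b1 held 2, from 212 to 194 bases before the start and, on the opposite strand, from 107 to 89 bases before it. In Calr it lay on the opposite strand from 162 to 144 bases before the start.

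A shorter motif, TGACGTGG, which is the core of the known unfolded protein response element, was found on either strand in 222 of the 32851 promoters (0.676%) and in 2 of the 9 genes, Sec23a and Sec24d. Both encode the inner layer of the COPII coat. Read on its opposite strand it shares CCACG with the ER stress response element, but no promoter of the 9 genes held both. It is shown in capitals in the 250 bases before the start of Sec24d at chr3:123267246-123267495 (plus strand), where it ran from 26 to 19 bases before the start, and in 30 bases around the start of Sec23a at chr12:59011993-59012022 (minus strand), where it ran from base 7 to base 14 of the transcript.
Sec24d: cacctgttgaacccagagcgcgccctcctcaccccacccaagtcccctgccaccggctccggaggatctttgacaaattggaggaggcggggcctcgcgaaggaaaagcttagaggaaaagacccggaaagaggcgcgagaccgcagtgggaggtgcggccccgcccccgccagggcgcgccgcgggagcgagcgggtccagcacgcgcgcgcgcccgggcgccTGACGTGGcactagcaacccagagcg
Sec23a: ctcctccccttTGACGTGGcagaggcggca
The C/EBP-ATF element TGATGCAAT (0.192% of promoters) and the cyclic AMP response element TGACGTCA (1.79%) were in 0 of the 9 windows, and the windows of Creb3l2, Mia3, Ddit3 and Atf4 held 0 of the 4 motifs. A match is a string of letters and not a shown binding site, and a motif may lie outside such a window. RefSeq and GENCODE M21 place gene starts differently, and the GENCODE genes Hspa5, Hsp90b1, Calr and Sec24d begin within the windows shown.

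Differential expression of 18-month against 2-month cartilage was tested with edgeR's quasi-likelihood test on the counts, and to be called a gene needed an adjusted p-value (Benjamini-Hochberg, over 20397 tested genes) below 0.05 together with a log2 fold change beyond 1 in either direction. All 10 genes passed the filter on low counts. Of the 10, 7 were called lower in aged cartilage and 0 higher, against 21.3% of all tested genes called lower and 14.9% called higher (36.3% in either direction). Without 18-month replicate 2 or 18-month replicate 3 the number called lower was 4. The called genes were Creb3l2, Sec23a, Sec24d, Mia3, Hspa5, Hsp90b1 and Ddit3. Atf4 was past the limit on the adjusted p-value but not on the fold change, and Calr and Atf6 were past neither limit. By the adjusted p-value alone 8 of the 10 were lower and 0 higher, where 27.9% of all tested genes were lower and 23.4% higher. The median log2 fold change of the 10 was −1.21, beside −0.02 for all tested genes. Every 18-month library lay below every 2-month library for 8 of the 10 genes, a pattern found in 34.6% of all tested genes, and above for 0 of the 10 (33.9% of all tested genes), while Calr and Atf6 overlapped between the ages. Levels are given as FPKM, the authors' scaling by transcript length and library size, and fold changes as the log2 difference fitted by edgeR with its standard error (SE).

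**Figure D1:**
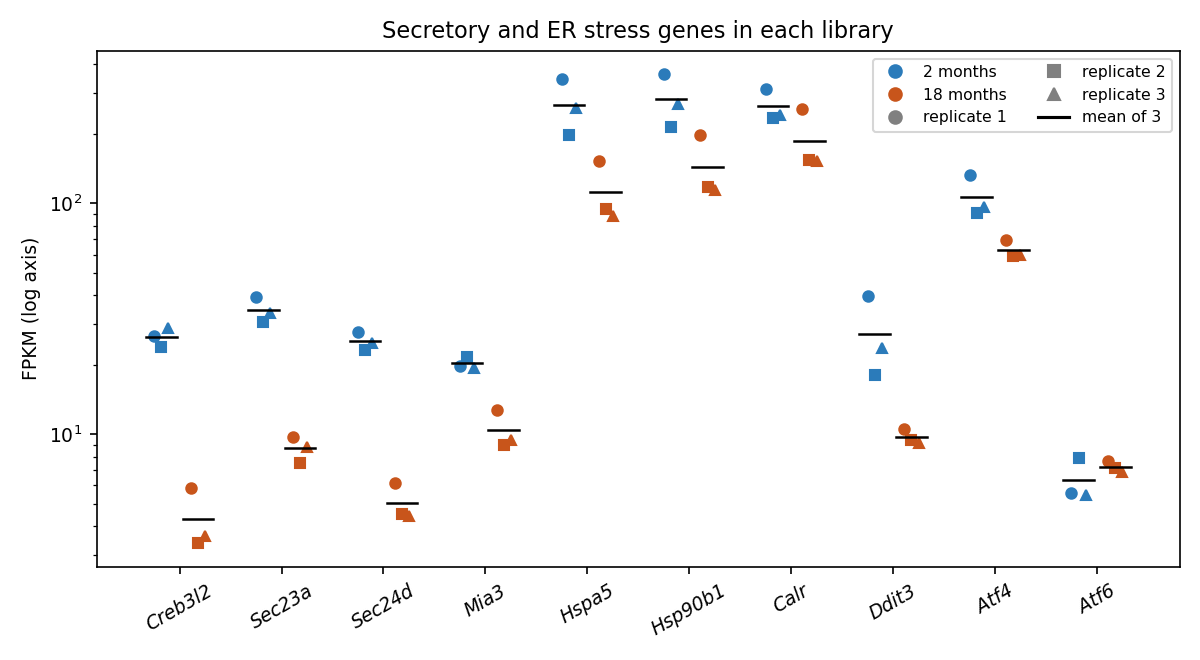
FPKM (log axis) of the 10 genes in each library, with 2-month libraries in blue, 18-month libraries in orange, the replicate given by the marker and the mean of 3 libraries by a bar. Points of the 2 ages lie apart for 8 genes, furthest for Creb3l2 (26.4 against 4.29 FPKM on average), and mix for Calr and Atf6.

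Creb3l2, the membrane-bound factor of the group, fell most. Creb3l2 (ENSMUSG00000038648, chromosome 6, 37327255 to 37442146, minus strand, positions on GRCm38) was at 26.6, 23.8 and 28.7 FPKM in the 2-month replicates 1, 2 and 3 and at 5.85, 3.38 and 3.64 FPKM in the 18-month replicates. The lowest young library was thus well above the highest aged one, which was replicate 1. That aged library had the largest share of chondrocyte markers at its age, but also of plasma cell markers, among others. The log2 fold change of Creb3l2 was −2.71 (SE 0.25, edgeR adjusted p = 0.00133), a level 6.55-fold higher at 2 months. Only 9.13% of tested genes had a lower log2 fold change.

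Its closest relative Creb3l1, known as a factor of bone-forming cells, was at 10.6, 19.7 and 9.58 FPKM at 2 months and 5.22, 4.65 and 4.34 FPKM at 18 months (log2 fold change −1.55, SE 0.26, edgeR adjusted p = 0.0057). The highest young library for Creb3l1 was replicate 2. That library had the largest share at its age of osteoblast and osteocyte, neutrophil, erythroid, monocyte and macrophage, B lymphocyte and plasma cell markers. Any link of these shares with Creb3l1 was not tested. The ratio of Creb3l2 to Creb3l1 was 2.50, 1.21 and 3.00 in the 2-month libraries and 1.12, 0.727 and 0.838 in the 18-month libraries, a difference of −1.24 on the log2 scale. Such ratios within a library do not depend on scaling between libraries, and 7 of them were compared in all over the 6 libraries. With 3 libraries against 3 an exact two-sided permutation test cannot give less than p = 0.1, and it gave 0.1 for each of the 7, also after Benjamini-Hochberg adjustment, so each ratio separated the ages without reaching 0.05. CREB3-type factors and ATF6 are released by the site-1 and site-2 proteases: the gene of the first, Mbtps1, fell from 19.2 ± 0.602 to 8.21 ± 1.15 FPKM (SD, n = 3 each; log2 fold change −1.31, edgeR adjusted p = 0.00158). That of the second, Mbtps2, was at 2.69 ± 0.0816 and 2.41 ± 0.323 FPKM (SD, n = 3 each; edgeR adjusted p = 0.213).

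Both COPII genes fell several-fold. Sec23a (ENSMUSG00000020986, chromosome 12, 58958383 to 59012017, minus strand) encodes one of the 2 mammalian SEC23 proteins, which switch off the small GTPase SAR1 as the coat forms. It was at 39.2, 30.5 and 33.5 FPKM in the 2-month libraries and at 9.77, 7.54 and 8.79 FPKM in the 18-month libraries. Each young library was above 3 times the level of each aged one, and the log2 fold change was −2.07 (SE 0.17, edgeR adjusted p = 0.00114). An antisense gene, Gm17529, overlaps its exons, and whether the counting used strand is not given in the sources used here.

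Its paralog Sec23b was at 8.58, 8.17 and 9.18 FPKM at 2 months and 9.43, 6.98 and 7.35 FPKM at 18 months. The ages thus overlapped for Sec23b (log2 fold change −0.21, SE 0.15, edgeR adjusted p = 0.264). Sec23a was therefore 4.57, 3.74 and 3.65 times as abundant per length as Sec23b in young cartilage and 1.04, 1.08 and 1.2 times in aged cartilage. The difference of this ratio between the ages was −1.85 on the log2 scale.

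Sec24d (ENSMUSG00000039234, chromosome 3, 123267455 to 123365641, plus strand) encodes one of the 4 SEC24 proteins that pick cargo for the coat. It was at 27.9, 23.1 and 24.8 FPKM at 2 months and 6.14, 4.50 and 4.42 FPKM at 18 months. The aged libraries lay far below the young ones, with a 5.34-fold difference in the fit (log2 fold change −2.42, SE 0.18, edgeR adjusted p = 0.000955).

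The other SEC24 genes did not move alike. Sec24a fell from 4.46 ± 0.189 to 1.76 ± 0.218 FPKM (SD, n = 3 each; log2 fold change −1.42, edgeR adjusted p = 0.00125). Sec24b, at 8.03 ± 0.915 and 7.10 ± 0.784 FPKM (SD, n = 3 each), and Sec24c, at 20.3 ± 1.40 and 19.5 ± 1.80 FPKM (SD, n = 3 each), were not past the threshold (edgeR adjusted p = 0.097 and 0.313). Set against the sum of these paralogs, Sec24d stood at 0.903, 0.660 and 0.767 in the 2-month libraries and at 0.196, 0.174 and 0.159 in the 18-month libraries. That was a difference of −2.13 on the log2 scale, the largest of the 7 ratios.

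Mia3 (ENSMUSG00000056050, chromosome 1) encodes TANGO1, the receptor that helps load procollagen at ER exit sites. The authors' table gives it from 183326725 to 183354040 on the minus strand, whereas GENCODE M21 extends the gene to 183369553. The other 9 genes have the same positions in both. It was at 19.8, 21.7 and 19.4 FPKM at 2 months, the least variable of the 10 genes there (coefficient of variation 5.86%), and at 12.8, 9.02 and 9.48 FPKM at 18 months. The ages did not overlap, and the log2 fold change was −1.04 (SE 0.15, edgeR adjusted p = 0.00324), just past the limit on the fold change. In 5 of 8 alternatives, which used other scalings or tests, it was between −0.91 and −0.99, and without 18-month replicate 2 or 3 it was −0.95 or −0.98, each under that limit with the adjusted p-value still below 0.05.

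Mia2, which encodes the partner of TANGO1 at the exit site, was at 7.84, 7.13 and 6.75 FPKM at 2 months and 10.04, 8.58 and 8.30 FPKM at 18 months, a log2 fold change of 0.23 (SE 0.12, edgeR adjusted p = 0.162). The ratio of Mia3 to Mia2 was 2.53, 3.04 and 2.88 in young and 1.27, 1.05 and 1.14 in aged libraries, a difference of −1.29 on the log2 scale. Serpinh1, which encodes the collagen-specific chaperone HSP47, fell from 409.9 ± 55.8 to 55.9 ± 19.97 FPKM (SD, n = 3 each; log2 fold change −2.95, edgeR adjusted p = 0.00135).

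**Figure D2:**
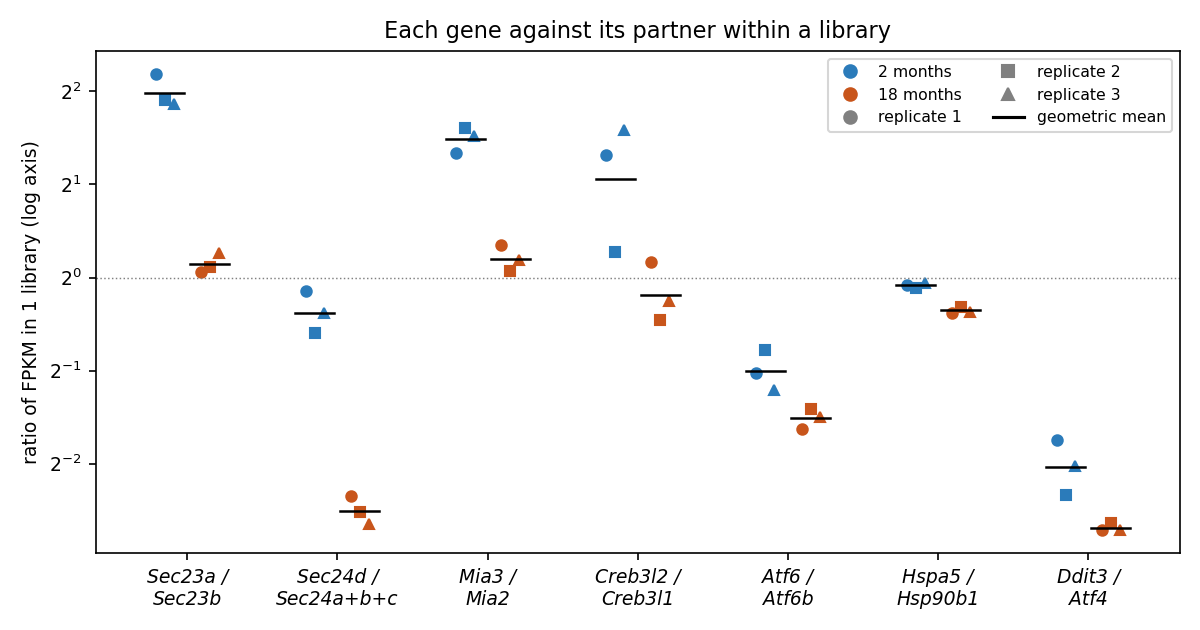
Ratio of FPKM between each gene and its partner within each library (log axis), with colours for age, markers for the replicate and bars for the geometric mean of 3 libraries. For each of the 7 ratios the 18-month libraries lie below the 2-month libraries. The difference of the means on the log2 scale is largest for Sec24d against its paralogs (−2.13) and smallest for Hspa5 against Hsp90b1 (−0.27). Single libraries of the 2 ages come nearest for Creb3l2 against Creb3l1 (1.21 at 2 months, 1.12 at 18 months).

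The 3 chaperones of the ER lumen were the most abundant of the 10 genes, and differed less between the ages than the COPII genes. Hspa5 (ENSMUSG00000026864, chromosome 2, 34771970 to 34777547, plus strand) encodes BiP, the ER member of the HSP70 family, which also holds the stress sensors inactive. It was at 344.6, 197.1 and 259.1 FPKM in the 2-month libraries and at 153.0, 94.5 and 88.2 FPKM in the 18-month libraries. The aged replicate 1 came nearest to the young replicate 2 without reaching it. The log2 fold change was −1.35 (SE 0.33, edgeR adjusted p = 0.0184). That call did not hold without 2-month replicate 3, 18-month replicate 2 or 18-month replicate 3 (edgeR adjusted p = 0.0550, 0.0730 and 0.0717; range over the fits with 1 library left out, 0.0040 to 0.0730).

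Hsp90b1 (ENSMUSG00000020048, chromosome 10, 86690209 to 86705509, minus strand) encodes GRP94, the HSP90 of the ER. It was at 363.1, 213.9 and 270.4 FPKM at 2 months and 198.8, 117.5 and 114.0 FPKM at 18 months. The highest aged library, replicate 1, lay just under the lowest young one, replicate 2, and the log2 fold change was −1.08 (SE 0.33, edgeR adjusted p = 0.0379). The call was lost without 2-month replicate 1, 2-month replicate 3, 18-month replicate 2 or 18-month replicate 3 (edgeR adjusted p = 0.0909, 0.0931, 0.125 and 0.125; range over the fits with 1 library left out, 0.0100 to 0.125). Genes of other biotypes, among them 1810014B01Rik and Gm15344, overlap its exons.

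Hspa5 and Hsp90b1 moved nearly together across the libraries. Their ratio was 0.949, 0.922 and 0.958 in young and 0.770, 0.804 and 0.774 in aged libraries, the smallest difference among the 7 ratios at −0.27 on the log2 scale. Calr (ENSMUSG00000003814, chromosome 8, 84841850 to 84846934, minus strand) encodes calreticulin, a calcium-binding chaperone for glycoproteins. It was at 313.4, 235.1 and 241.3 FPKM at 2 months and 255.9, 153.5 and 152.7 FPKM at 18 months. The aged replicate 1 was above the young replicates 2 and 3, and the difference was not past the threshold (log2 fold change −0.58, SE 0.27, edgeR adjusted p = 0.116). Without that aged library the log2 fold change was −0.84 and the edgeR adjusted p-value 0.0335, still under the limit on the fold change. Canx, the membrane-bound relative of calreticulin, was at 88.1 ± 15.3 and 63.6 ± 11.1 FPKM (SD, n = 3 each; edgeR adjusted p = 0.070).

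Of the 3 stress factors Ddit3 fell most, Atf4 fell less and Atf6 was not past the threshold. Ddit3 (ENSMUSG00000025408, chromosome 10, 127290774 to 127296288, plus strand), which encodes CHOP, was at 39.6, 18.1 and 23.6 FPKM at 2 months and at 10.6, 9.47 and 9.12 FPKM at 18 months. Young libraries varied widely, with a coefficient of variation of 41.2%, while the aged ones lay close together at 7.69%. The log2 fold change was −1.57 (SE 0.33, edgeR adjusted p = 0.0106). Without 2-month replicate 1, the library with the highest level, it was −1.17 and the call held. A second gene model named Ddit3, the gene Mars on the opposite strand and Gm4189 overlap its exons in GENCODE M21, so the counting could have divided reads between them.

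Atf4 (ENSMUSG00000042406, chromosome 15, 80255184 to 80257541, plus strand) was at 132.8, 91.4 and 96.7 FPKM at 2 months and 69.4, 59.3 and 60.1 FPKM at 18 months. The ages did not overlap, but the fall was under the limit on the fold change (log2 fold change −0.85, SE 0.20, edgeR adjusted p = 0.0156). Without 18-month replicate 2 or 3 the edgeR adjusted p-value was 0.0626 or 0.0616. ATF4 is regulated mostly at translation, which transcript levels do not show. The ratio of Ddit3 to Atf4 was 0.298, 0.198 and 0.245 in young and 0.152, 0.160 and 0.152 in aged libraries, a difference of −0.66 on the log2 scale.

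Atf6 (ENSMUSG00000026663, chromosome 1, 170704674 to 170867771, minus strand) was the only one of the 10 with a positive log2 fold change in this fit, and it overlapped between the ages. It was at 5.56, 7.92 and 5.44 FPKM at 2 months and 7.64, 7.14 and 6.86 FPKM at 18 months (log2 fold change 0.12, SE 0.14, edgeR adjusted p = 0.476). The young replicate 2, which had the largest shares of neutrophil and erythroid markers at its age, was the highest of the 6 libraries. Without it the log2 fold change was 0.29 and the edgeR adjusted p-value 0.0249 (range over the fits with 1 library left out, 0.0249 to 0.814), under the limit on the fold change. When FPKM was rescaled to TPM the log2 fold change of Atf6 was −0.22, but the median of all genes was then −0.33, so that relative to it Atf6 stood at 0.11. The related Atf6b rose from 12.5 ± 1.13 to 20.6 ± 2.54 FPKM (SD, n = 3 each; log2 fold change 0.65, edgeR adjusted p = 0.00601), which is under the limit on the fold change. The ratio of Atf6 to Atf6b went from 0.490, 0.582 and 0.433 to 0.324, 0.376 and 0.354, a difference of −0.51 on the log2 scale.

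**Figure D3:**
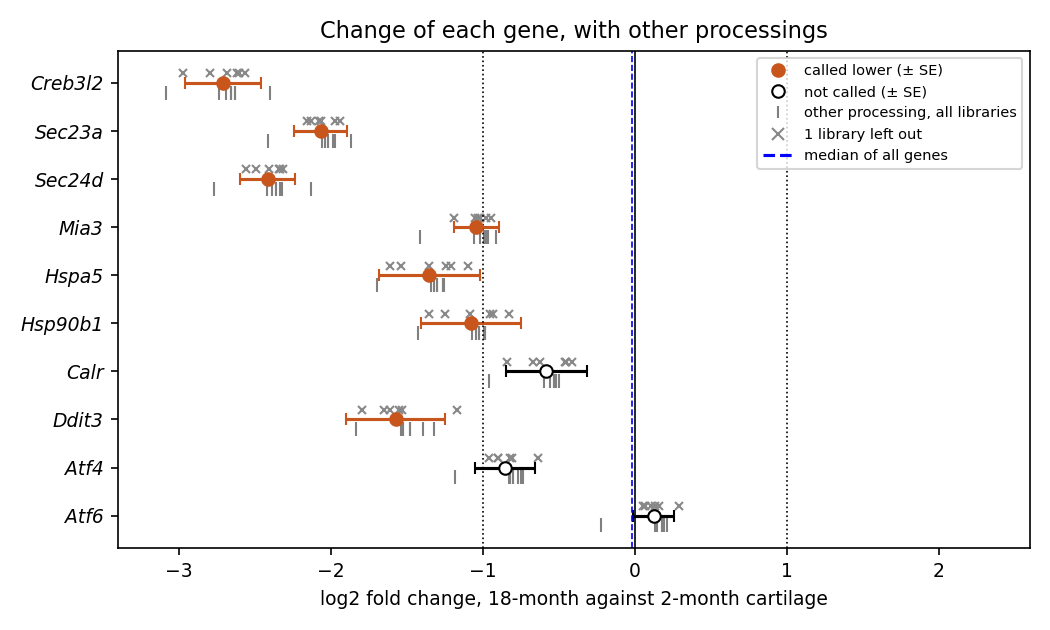
Log2 fold change of 18-month against 2-month cartilage for the 10 genes, as the main value with its SE (circles, filled where called lower), under 8 other processings with all libraries (ticks) and with 1 library left out (crosses). Dotted lines mark the limits at −1 and 1 and the dashed line the median of all tested genes (−0.02). Creb3l2, Sec23a, Sec24d, Hspa5 and Ddit3 stay left of −1 throughout, Mia3, Hsp90b1 and Atf4 fall on both sides of it, and a tick for Atf6 lies below 0.

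The order of the 10 genes by level changed with age. In young cartilage Hsp90b1 (282.5 FPKM on average), Hspa5 (267.0) and Calr (263.3) led with overlapping libraries, followed by Atf4 (106.9). Sec23a (34.4), Ddit3 (27.1), Creb3l2 (26.4) and Sec24d (25.3) came next, each overlapping its neighbour in this order, then Mia3 (20.3) and, apart from the rest, Atf6 (6.31). In aged cartilage Calr (187.4) stood first, before Hsp90b1 (143.4), Hspa5 (111.9) and Atf4 (62.9), and Creb3l2 (4.29) stood last, below Sec24d (5.02), Atf6 (7.21), Sec23a (8.70), Ddit3 (9.72) and Mia3 (10.4). In that order the aged libraries of each neighbouring pair overlapped, except between Hspa5 and Atf4, Atf4 and Mia3, and Atf6 and Sec24d. The 10 genes together took 0.564%, 0.375% and 0.451% of the counts in the 2-month libraries and 0.302%, 0.193% and 0.190% in the 18-month libraries.

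Libraries of one age also differed in a shared way. In counts per library scaled by TMM (CPM), 18-month replicate 1 was the highest aged library for each of the 10 genes, whereas it was the highest for 44.5% of all tested genes. Among the young libraries replicate 1 was the highest for 8 of the 10 (32.7% of all tested genes), all but Creb3l2 and Atf6, although the FPKM of Mia3 was highest in replicate 2. Replicate 2 was the lowest for 8 (39.3%), all but Mia3 and Atf6. The aged replicate 1 had the largest shares of chondrocyte, plasma cell, monocyte and macrophage, B lymphocyte, and osteoblast and osteocyte markers of its age. The young replicate 2 had the largest shares of blood cell markers and of osteoblast and osteocyte markers of its age. Whether these shares set the order was not tested. Without 2-month replicate 2 the same number of the 10 genes, 7, was called lower, with Creb3l2 at −2.80 and Ddit3 at −1.79 on the log2 scale.

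The genes with the most similar pattern over the 6 libraries were sought among 13899 other tested genes with a mean of at least 1 FPKM. For Creb3l2 they included Tns3 (Pearson r = 0.9998 of log2 CPM), Cnn3 (0.9998), Fgfr3 (0.9997) and Xylt1 (0.9996). The log2 fold changes of these ran from −1.43 for Tns3 to −4.75 for Fgfr3, a receptor of chondrocytes. For Ddit3 they were Ost4 (r = 0.998), a small subunit of the oligosaccharyltransferase, Ssr1 (0.997), a translocon-associated protein, Atf4 (0.996), Pgm1 (0.995) and Serf2 (0.995). With 6 points that fall into 2 ages, high values are common: 2729 genes were above 0.95 for Creb3l2 and 838 for Ddit3.

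The wider pathway was described by 8 lists of genes, and the counts that follow leave out the 10 genes themselves. For comparison, 21.3% of all tested genes were called lower and 14.9% higher, with a median log2 fold change of −0.02. Of 13 other COPII genes, 6 were called lower and 0 higher, with a median log2 fold change of −0.39. Sec16b, which helps lay out ER exit sites, fell from 15.2 ± 0.517 to 2.69 ± 0.526 FPKM (SD, n = 3 each; log2 fold change −2.58, edgeR adjusted p = 0.000749). Sar1a, Sec16a, Sec31a, Sec31b and Sec24a were the other 5. Of 11 other genes for large cargo and of the CREB3 family, 5 were called lower and 0 higher (median −0.85): Serpinh1, Mbtps1, Creb3l1, Creb3 and Scfd1. With Creb3l2 and Mia3 included 7 of 13 were called, and 4 of 13 in 5 of the 8 alternatives.

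A further list held 17 genes for the COPI coat, which serves the return path from Golgi to ER, for KDEL receptors and for cargo receptors of both directions. Of these 17, 8 were called lower and 0 higher (median −0.98), against 21.3% and 14.9% of all tested genes. Kdelr3, a receptor that retrieves chaperones such as BiP and GRP94 by their tail sequence, fell from 102.2 ± 23.5 to 7.81 ± 2.76 FPKM (SD, n = 3 each; log2 fold change −3.81, edgeR adjusted p = 0.00125). Its relatives Kdelr1 and Kdelr2, named after their values had been seen, changed by −1.05 and −1.44 on the log2 scale (edgeR adjusted p = 0.00285 and 0.00252). Copz2, a COPI coat subunit, fell from 29.7 ± 2.35 to 3.93 ± 0.839 FPKM (SD, n = 3 each; log2 fold change −3.00, edgeR adjusted p = 0.000751).

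Of 17 other chaperones and folding enzymes, 6 were called lower and 2 higher (median −0.84), against 21.3% and 14.9% of all tested genes. With Hspa5, Hsp90b1 and Calr included 10 were called, but 4 to 6 without 2-month replicate 1 or 3 or 18-month replicate 2 or 3. Sil1, the nucleotide exchange factor of BiP, changed by −2.33 (SE 0.25, edgeR adjusted p = 0.00181) and Dnajb9, a co-chaperone of BiP, by −2.06 (SE 0.25, edgeR adjusted p = 0.0023). Sdf2l1, an ER stress-inducible partner of BiP co-chaperones, went the other way, from 14.9 ± 2.23 to 34.6 ± 11.9 FPKM (SD, n = 3 each; log2 fold change 1.13, edgeR adjusted p = 0.0171). Ero1lb, an oxidase for disulfide bonds, rose from 2.49 ± 1.08 to 5.28 ± 0.518 FPKM (SD, n = 3 each; log2 fold change 1.02, edgeR adjusted p = 0.0242). Neither of these 2 rises was called without 2-month replicate 3, without 18-month replicate 1 or with TPM, where 0 genes of the list were called higher.

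For entry into the ER, 5 of 22 genes of the translocon, signal peptidase and oligosaccharyltransferase were called lower and 1 higher (median −0.61), a share of lower genes near the 21.3% of all tested genes. With TPM 10 were called lower, in a fit that called 5819 of 21539 genes lower and had a median log2 fold change of −0.33. Sec61a2, a channel subunit, changed by −2.17 (SE 0.15, edgeR adjusted p = 0.000855) and Stt3a, a catalytic subunit of the oligosaccharyltransferase, by −1.04 (SE 0.13, edgeR adjusted p = 0.00224). Sec11c, a catalytic subunit of signal peptidase, rose from 6.41 ± 1.66 to 19.8 ± 1.82 FPKM (SD, n = 3 each; log2 fold change 1.56, edgeR adjusted p = 0.00211). In ER-associated degradation 4 of 17 genes were called lower and 0 higher (median −0.49), again near the 21.3% of all tested genes. With TPM 8 were called lower, in that same fit with its lower median. The 4 included Edem3 (log2 fold change −1.33, edgeR adjusted p = 0.00117) and Erlec1 (−1.22, edgeR adjusted p = 0.00189), which both handle misfolded glycoproteins.

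**Figure D4:**
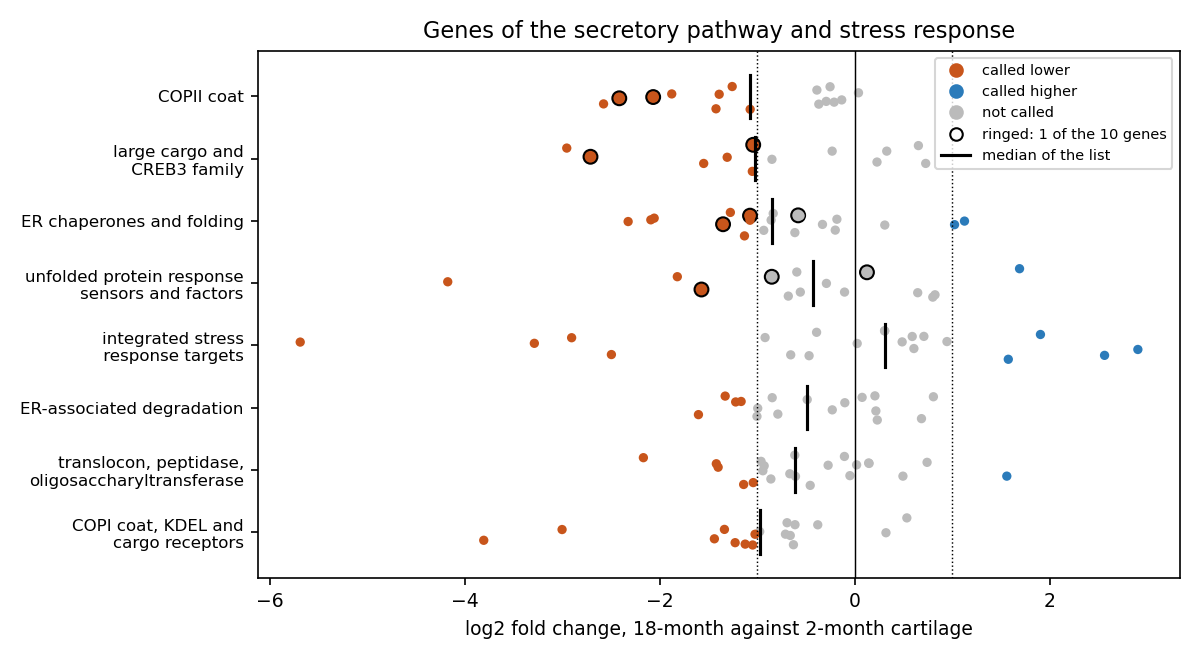
Log2 fold change of each tested gene of 8 lists (18-month against 2-month cartilage), coloured by call, with the 10 genes ringed and a bar at the median of each list, those genes included. Medians lie below 0 for 7 lists, from −1.07 for the COPII coat to −0.43 for unfolded protein response factors and stress kinases. The median lies above 0 (0.31) for genes of the integrated stress response.

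A list of unfolded protein response factors and stress kinases held kinases that are not sensors of the ER membrane, Eif2ak1 among them. Of its 11 other genes, 2 were called lower and 1, Eif2ak1, higher (median −0.29). These shares were no larger than the 21.3% and 14.9% of all tested genes. Atf5, a factor close to ATF4, fell from 122.9 ± 53.5 to 7.32 ± 2.86 FPKM (SD, n = 3 each; log2 fold change −4.18, edgeR adjusted p = 0.00227), and Nupr1, a stress-inducible cofactor, changed by −1.82 (SE 0.13, edgeR adjusted p = 0.000839). Eif2ak1, the heme-regulated kinase of red cell precursors, rose from 7.40 ± 2.45 to 24.9 ± 2.64 FPKM (SD, n = 3 each; log2 fold change 1.69, edgeR adjusted p = 0.00273). Its highest young library was replicate 2, at 10.2 FPKM. That library was the highest of its age for erythroid, neutrophil, monocyte and macrophage, B lymphocyte, plasma cell, and osteoblast and osteocyte markers. Any link with Eif2ak1 was not tested.

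Like Atf6, the genes of the other sensors of the ER membrane were not called. Eif2ak3, which encodes PERK, fell from 11.2 ± 0.654 to 8.01 ± 0.436 FPKM (SD, n = 3 each; log2 fold change −0.56, edgeR adjusted p = 0.00385) and Ern1, which encodes IRE1, from 11.2 ± 2.08 to 7.84 ± 0.247 FPKM (SD, n = 3 each; log2 fold change −0.60, edgeR adjusted p = 0.0308), both under the limit on the fold change. Xbp1, whose transcript IRE1 splices, was at 73.4, 50.4 and 62.1 FPKM in young and 73.9, 57.5 and 52.6 FPKM in aged libraries (log2 fold change −0.11, SE 0.22, edgeR adjusted p = 0.706). Spliced and unspliced Xbp1 are not told apart in gene counts.

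A list of 20 genes was made for the integrated stress response, the branch that acts through ATF4 and CHOP, and not each of them is an induced target. Of the 20, 4 were called lower and 4 higher (21.3% and 14.9% of all tested genes). The count of higher genes was not stable when 1 library was left out. It was 1 without 18-month replicate 2, and 2 without 2-month replicate 3, 18-month replicate 1 or 18-month replicate 3. In each of these fits 4 or 5 were called lower. Over all tested genes the number called higher also fell in these fits, from 3047 to between 2095 and 2408. Trib3, a target of both factors, was at 44.2, 19.003 and 23.2 FPKM in young and at 0.815, 0.487 and 0.474 FPKM in aged libraries (log2 fold change −5.69, SE 0.49, edgeR adjusted p = 0.00117). The order of its 2-month libraries, replicate 1 first and replicate 2 last, was that of Ddit3. It was also that of Sec23a, Sec24d, Hspa5, Hsp90b1, Calr and Atf4, so it was not particular to this pair. Pycr1, an enzyme of proline synthesis, changed by −3.29 (SE 0.23, edgeR adjusted p = 0.000843), and Chac1 and Vldlr completed the 4 that were lower. Psat1 and Phgdh, enzymes of serine synthesis, were among the 4 that were higher, with Ppp1r15b and Slc7a11. Slc7a11 was barely expressed, at 0.098 FPKM on average at 2 months and 0.385 FPKM at 18 months. Psat1 was at 0.887, 4.06 and 0.857 FPKM in young and 13.5, 10.8 and 10.9 FPKM in aged libraries (log2 fold change 2.56, SE 0.64, edgeR adjusted p = 0.0195). Its highest young library was again replicate 2. Ppp1r15b, which encodes a subunit of the phosphatase that reverses the stress signal, rose from 14.4 ± 3.73 to 44.8 ± 1.97 FPKM (SD, n = 3 each; log2 fold change 1.57, edgeR adjusted p = 0.0018).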

How the data were processed

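Total RNA of articular cartilage from 3 libraries at 2 months and 3 at 18 months was made into poly(A)-selected, strand-specific, paired-end libraries. The table the authors deposited holds raw counts for each gene and, beside them, FPKM, which they scaled by transcript length and library. Its young and aged columns were taken as the 2-month and 18-month libraries, in the words of the study. The submitters' processing notes name cutadapt 1.9, HISAT2 2.0.4, UMI-tools and StringTie 1.3.4d. Build and annotation are not given in the sources used here, and positions were compared with GENCODE M21 (GRCm38).

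The test on counts used edgeR 4.0.16 under R 4.3.3 (TMM, filterByExpr, quasi-likelihood test, no replicate block). The SE was derived from the fold change and its F statistic (their quotient after taking the root of F). The 10 genes and the lists were chosen with earlier results of these data known. Alternatives used limma 3.58.1, DESeq2 1.42.0, other scalings, no filter, a replicate block and each library left out. The limma fits kept genes whose FPKM averaged 0.1 or more, with a pseudocount of 0.1 or 1. Replicates were compared by chi-square over genes with at least 20 counts, and none agreed within counting noise (median statistic 6.32 to 48.8 times that expected). Intervals of shares of counts were left out, since at these depths counting error is far below the spread between libraries.

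Beside the 10 genes, the text names the partners in the ratios, 7 fixed genes (Serpinh1, Mbtps1, Mbtps2, Xbp1, Ern1, Eif2ak3 and Canx), up to 2 genes called lower and 2 called higher with the lowest p-values in each list (mean FPKM 1 or more), and the 5 genes most like Creb3l2 and Ddit3, of which 1 is not reported here. Other genes were named to complete a count after their values had been seen. Figures were drawn with matplotlib 3.10.9.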

Additional observations from a re-analysis of the deposited data

How the results depend on the processing

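Creb3l2, Sec23a, Sec24d and Ddit3 were called lower in each of 8 alternatives with all libraries and in each of 6 fits with 1 library left out. Median-of-ratios factors, total counts, no filter, DESeq2, 2 limma fits on FPKM, limma on TPM and a replicate block were the 8. Rescaling FPKM to TPM turned Atf6 to −0.22 and, at −1.18, called Atf4. Of the 10 genes, between 5 and 8 were called lower over the alternatives and between 4 and 7 with 1 library left out, the fewest without 18-month replicate 2 or 3. None was called higher in these fits. Mia3 and Hsp90b1 lost their call to the fold limit with total counts in edgeR (−0.97 and −0.98), limma on log2(FPKM + 0.1) (−0.97 and −0.99) and limma on log2(FPKM + 1) (−0.91 and −0.99). Mia3 also lost it with median-of-ratios factors (−0.99) and DESeq2 (−0.99). The genes called ran from 5258 to 8928 over the alternatives and from 5640 to 9583 with 1 library left out. Of the 7401 called with TMM, 41.2% were higher, against 57.8% in limma on log2(FPKM + 1), 34.8% with TPM and 52.2% without 2-month replicate 2.

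The large cargo and CREB3 list went from 7 called genes to 4 with median-of-ratios factors, total counts, DESeq2 and both limma fits on FPKM. The COPI list went from 8 to 5 with limma on log2(FPKM + 1), ER-associated degradation from 4 to 8 and the translocon list from 6 to 11 with TPM. Over all genes the TPM fit called 5819 of 21539 lower, against 4354 of 20397 in the main fit. With 1 library left out the called genes ran from 4 to 12 for chaperones, 4 to 8 for large cargo, 7 to 8 for COPII and 6 to 9 for COPI. They ran from 4 to 5 for unfolded protein response factors and stress kinases and from 5 to 8 for integrated stress response genes. For degradation the range was 4 to 6 and for the translocon 4 to 8. Chaperones went from 10 to 6 when 2-month replicate 1 was dropped, to 4 when 2-month replicate 3 was, and to 5 when 18-month replicate 2 or 3 was. Dropping 18-month replicate 2 also took large cargo from 7 to 4 and integrated stress response genes from 8 to 5. The 7 ratios kept their sign in the alternatives run, but most of these could not have turned it. The ages did not overlap for any ratio, so leaving out 1 library cannot change a sign. The replicate block returns the main difference by construction.

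With the replicate number as a block 6032 genes and 7 of the 10 were called. Deviations of same-numbered libraries had correlations of 0.03, 0.04 and −0.02, and not every library correlated best with its own number. These values show no pairing but cannot exclude it, since deviations from a mean of 3 libraries depend on each other.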
